A study of Mus musculus with 2 samples.

Results

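The genes described here are 39 genes of the lysosome and of autophagy, chosen by name, all of which were measured in both libraries among 26549 gene symbols that the libraries share. They comprise 7 lysosomal proteases, 8 other hydrolases with their activators and lipid carriers, 8 membrane proteins, 5 genes of the proton pump, 2 genes of regulation and trafficking and 9 genes of autophagy. Their levels were described across ovarian cell clusters and between 2 single-cell RNA libraries. The PS-MP library came from female ICR mice given 1 mg of polystyrene microplastics, 100 nm in diameter, in 100 µL by daily gavage, and the control library came from female ICR mice of the same age given ddH2O. Gavage began at 3 weeks of age and lasted 35 days, and the ovaries were collected at 8 weeks of age. Each library pooled cells of several mice with no label that ties a cell to a mouse. Each group is therefore 1 sample, no test of the exposure was possible, and every interval below is a 95% interval that covers counting error only. Other particle sizes and doses of the study were not analysed here.

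Lysosomes are acidic organelles that degrade material taken up from outside the cell and material delivered from inside it by autophagy. Their hydrolases work at the low pH that the vacuolar proton pump maintains, and a coat of heavily glycosylated membrane proteins shields the limiting membrane. In autophagy, a membrane decorated with proteins of the LC3 and GABARAP families encloses cytoplasm and fuses with the lysosome. In the ovary, macrophages are the professional phagocytes, and luteal and theca cells handle large amounts of cholesterol, part of which passes through lysosomes.

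Many lysosomal genes carry a short palindrome in their promoters, CACGTG with defined flanks, that the transcription factor TFEB and its relatives are known to bind. RefSeq promoter windows of 300 bases (GRCm38.p6, 250 bases before the start of the gene to 50 after it) were found for 34 members. The core CACGTG lay in the window of 10 of these 34 genes (29.4%): Ctsa, Ctsd, Ctsl, Gaa, Glb1, Lamp1, Mcoln1, Atp6v1a, Atg5 and Atg7. It lay in 7.15% of all 32851 windows, and in at least 1 window of 8.09% of 27025 symbols. The longer palindrome TCACGTGA was in the windows of 4 of the 34 genes (11.8%), Ctsa, Ctsd, Mcoln1 and Atp6v1a. It was in 0.974% of all windows and in at least 1 window of 1.12% of symbols. The same palindrome with G before and C after it was in 0 of the 34 genes, in 0.326% of all windows and in 0.37% of symbols. All 3 motifs read the same on both strands, and each longer form contains the shorter ones. Windows for Ctsb, Npc1, Atp6v0d2, Map1lc3a and Becn1 were not used here. The 5 windows below are shown because 4 of them hold more than 1 copy and because Glb1 is compared between libraries later; they run 5′ to 3′ on the strand of the gene, and CACGTG is in capitals.
Lamp1 (chr8:13158911-13159210, plus strand): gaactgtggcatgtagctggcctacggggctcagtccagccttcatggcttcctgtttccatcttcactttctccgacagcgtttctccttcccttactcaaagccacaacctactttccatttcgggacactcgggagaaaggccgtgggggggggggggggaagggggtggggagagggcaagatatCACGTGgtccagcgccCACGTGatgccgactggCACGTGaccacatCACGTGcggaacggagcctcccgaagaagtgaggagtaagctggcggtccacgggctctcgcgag
Mcoln1 (chr8:3500269-3500568, plus strand): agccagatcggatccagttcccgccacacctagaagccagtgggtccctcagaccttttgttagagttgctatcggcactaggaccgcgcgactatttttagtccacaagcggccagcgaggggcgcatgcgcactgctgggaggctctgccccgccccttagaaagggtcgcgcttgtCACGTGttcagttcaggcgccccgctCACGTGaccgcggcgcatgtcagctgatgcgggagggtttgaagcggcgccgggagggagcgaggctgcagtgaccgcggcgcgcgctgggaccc
Ctsa (chr2:164833523-164833822, plus strand): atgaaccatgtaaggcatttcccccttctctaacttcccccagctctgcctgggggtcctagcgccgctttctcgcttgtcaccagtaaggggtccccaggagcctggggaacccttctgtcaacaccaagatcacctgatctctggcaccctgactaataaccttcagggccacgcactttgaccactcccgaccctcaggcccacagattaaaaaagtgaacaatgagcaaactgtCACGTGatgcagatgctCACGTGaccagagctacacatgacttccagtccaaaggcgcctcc
Ctsd (chr7:142387778-142388077, minus strand): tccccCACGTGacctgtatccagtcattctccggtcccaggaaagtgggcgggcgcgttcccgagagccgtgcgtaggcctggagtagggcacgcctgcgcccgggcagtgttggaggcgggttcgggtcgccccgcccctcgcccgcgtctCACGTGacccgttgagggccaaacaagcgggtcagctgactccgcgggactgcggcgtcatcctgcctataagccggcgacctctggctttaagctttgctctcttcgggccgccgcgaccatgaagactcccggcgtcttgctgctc
Glb1 (chr9:114400828-114401127, plus strand): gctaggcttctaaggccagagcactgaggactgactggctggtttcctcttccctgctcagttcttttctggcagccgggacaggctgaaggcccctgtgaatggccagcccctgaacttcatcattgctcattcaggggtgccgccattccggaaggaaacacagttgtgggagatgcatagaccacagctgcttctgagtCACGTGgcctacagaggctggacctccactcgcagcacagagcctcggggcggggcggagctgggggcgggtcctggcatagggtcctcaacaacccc
Lamp1, which encodes an abundant protein of the lysosomal membrane, held 4 copies, which began 61, 45, 28 and 15 bases upstream of the start of the gene. Mcoln1, the lysosomal calcium channel TRPML1, held 2 copies, beginning 71 and 45 bases upstream. Ctsd, an aspartic protease, held copies beginning 245 and 98 bases upstream. A match describes letters in this window and no binding was measured.

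The 2 libraries held 15056 cells with 145474989 molecule (UMI) counts in PS-MP and 15373 cells with 160257194 in control, and 3 barcodes occurred in both. After filtering, 14377 PS-MP cells and 14480 control cells remained, with medians of 8628 and 9493 UMIs. Clustering without any of the 39 genes gave 18 clusters, which were named from marker genes. Granulosa-like cells, which support the oocyte, formed clusters 0, 1, 2, 4, 5 and 9. Clusters 0, 1, 4 and 9 each had 0 granulosa markers among their 10 leading genes, and cluster 0 had 1 glial marker there. Cluster 4 was named at a marker score of 0.197, where at least 0.15 was required. Granulosa-like clusters were therefore compared 1 by 1 and not as a class. Luteal-like cells, which make progesterone, formed clusters 6 and 11, and cluster 6 had 0 luteal markers among its 10 leading genes. Cluster 6, led by Edn2, Tinagl1 and Cemip, held 1892 PS-MP cells and 7 control cells and may be a feature of that library, so it entered no comparison between libraries.

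The summed level of the 39 genes was highest in the macrophage or monocyte-like cells of cluster 8, where they made up 3.23% of all UMIs in PS-MP and 3.21% in control. All 10 macrophage markers reached 20 CPM (counts per 1000000, UMI counts scaled to that total in the cells of a cluster and library) in both libraries of that cluster. Plasmacytoid dendritic-like cells (22 PS-MP and 67 control cells) followed with 1.58% and 1.99%, and dendritic-like cells (41 and 61 cells) with 1.69% and 1.47%. Luteal-like cluster 11 had 1.05% and 0.9499%, theca-like cluster 7 had 0.859% and 0.809%, and stromal fibroblast-like cluster 3 had 0.761% and 0.704%. Granulosa-like clusters ranged from 0.511% in cluster 1 to 0.841% in cluster 4 in PS-MP, and from 0.496% in cluster 5 to 0.835% in cluster 4 in control. The difference between macrophages and granulosa-like cells was thus larger than any difference between the libraries within a cluster.

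**Figure D1:**
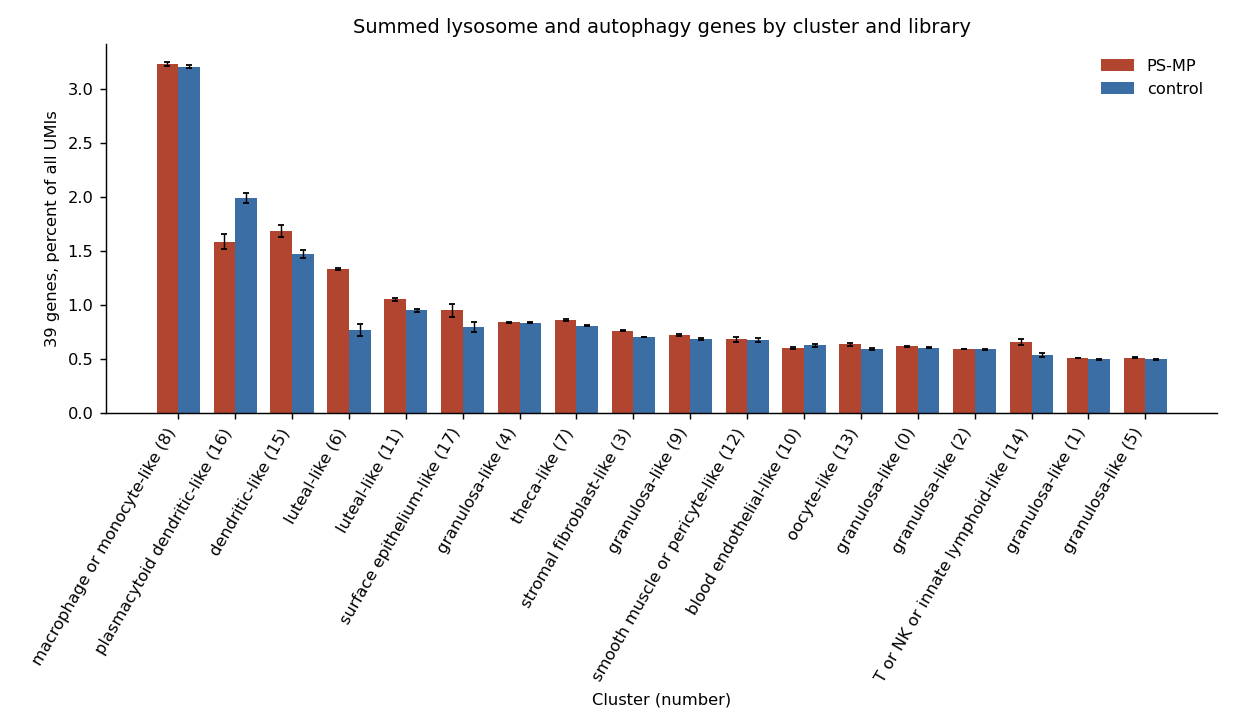
Summed UMI counts of the 39 genes as a percent of all UMIs (vertical axis) in each of 18 clusters, with PS-MP on the left and control on the right of each pair. Error bars are exact 95% Poisson intervals for counting error. Macrophage or monocyte-like cells stand at 3.23% and 3.21%, and luteal-like cluster 6 has only 7 control cells.

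Of the 39 members, 18 had their highest level, with both libraries pooled, in cluster 8. These 18 comprised the proteases Ctsa, Ctsb, Ctsd, Ctss and Ctsz, the hydrolase genes Hexa, Psap and Lipa, the membrane proteins Lamp1, Cd68 and Gpnmb, the pump genes Atp6v0d2, Atp6v0c, Atp6v1a and Atp6ap1, and Tfeb, Gabarap and Atg7. Ctsb, a cysteine protease, averaged 7196 CPM there against a median of 435 CPM over clusters. Ctsd stood at 769 CPM against a median of 49.1. Grn, the precursor of granulins, was highest in plasmacytoid dendritic-like cells at 2314 CPM, and Rab7, the GTPase of late endosomes, in dendritic-like cells at 1338 CPM. Tfeb itself was low in every cluster, with its highest level at 20.7 CPM in cluster 8, and it reached 20 CPM in both libraries in 0 of 18 clusters.

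**Figure D2:**
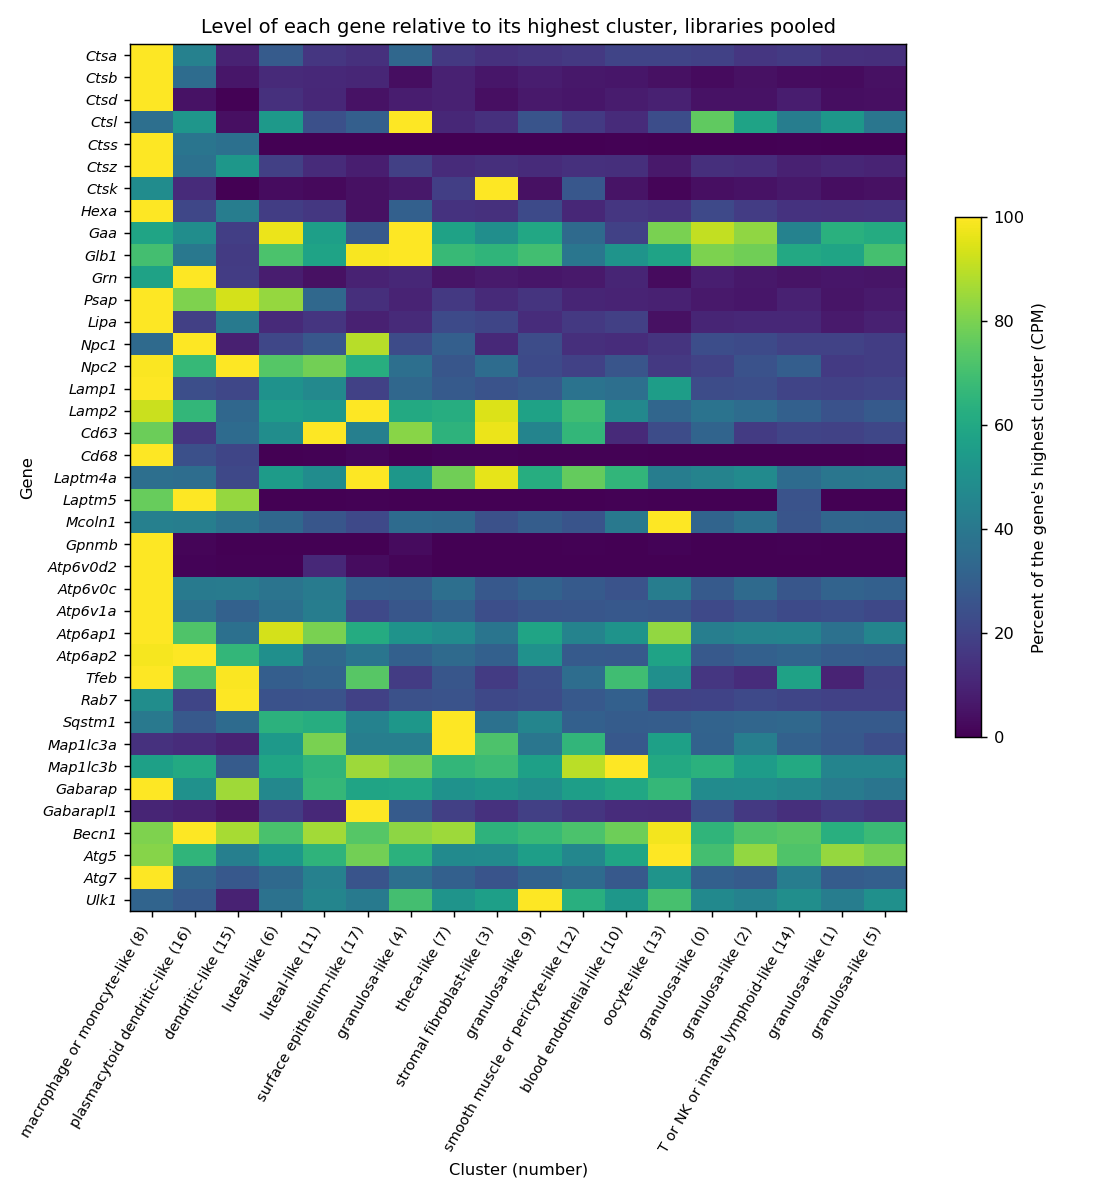
Level of each gene (rows) in each cluster (columns, ordered by the summed level) as a percent of that gene's highest cluster, from CPM with both libraries pooled. The first column, macrophage or monocyte-like cells, holds the highest value of 18 of the 39 genes, while Ctsl, Sqstm1, Map1lc3a and Cd63 peak elsewhere.

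A small set of members was almost confined to immune cells. Ctss, a protease of antigen-presenting cells, stood at 3074 CPM in PS-MP macrophages and 2927 CPM in control macrophages. In granulosa-like cluster 2 it stood at 1.94 CPM in PS-MP and 4.52 CPM in control, which is 0.0631% and 0.154% of the macrophage level. Lyz2, a macrophage marker outside the list, stood at 0.0745% and 0.121% of its macrophage level in the same cluster, so Ctss there was at the level of macrophage RNA in general. Laptm5, a lysosomal membrane protein of blood cells, behaved alike, with 0.109% and 0.203%. In granulosa-like cells these genes were therefore not compared between libraries.

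Gpnmb, a glycoprotein of phagocytes and pigment cells, and Atp6v0d2, a pump subunit isoform known from macrophages and osteoclasts, each had further clusters above that level. The highest of these is described first for each gene. Gpnmb stood at 16.7 CPM in PS-MP and 21.4 CPM in control in granulosa-like cluster 4, led by H19, Galnt15 and Ntn4, which is 2.50% and 3.50% of the macrophage level, where Ctss reached 0.0954% and 0.160%. With every cell thinned to 3500 UMIs, 3.73% of PS-MP cells (2.69 to 5.02) and 5.95% of control cells (4.82 to 7.26) of cluster 4 had a Gpnmb UMI, against 0.123% and 0.133% in granulosa-like cluster 2. Without thinning these were 7.09% and 11.2% in cluster 4 and 0.247% and 0.531% in cluster 2. Median depth was 7171.5 and 7914 UMIs in cluster 4 and 8588 and 9513.5 in cluster 2. Atp6v0d2 stood at 32.0 CPM in PS-MP and 22.0 CPM in control in luteal-like cluster 11, against 1.37 CPM in the PS-MP cells of luteal-like cluster 6. In cluster 11, 8.27% of thinned PS-MP cells (4.20 to 14.3) and 6.17% of thinned control cells (3.41 to 10.1) had an Atp6v0d2 UMI, and Ctss had one in 0.752% and 1.32%. Without thinning, Atp6v0d2 had a UMI in 21.1% and 16.3% of these cells, and Ctss in 1.504% and 4.85%. Both genes thus lay above the share that Ctss, as a sign of macrophage RNA, had in the same cells. At lower levels, Atp6v0d2 in granulosa-like cluster 4 had 1.01% and 1.35% of its macrophage level, also above Ctss there. Gpnmb in oocyte-like cells had 1.15% and 0.946%, where Ctss had 0.214% and 0.165%.

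The luteal-like clusters were set apart from other non-immune cells by Psap, the precursor of the saposins that activate sphingolipid hydrolases. Within the PS-MP library, Psap came to 5647 CPM among cells of cluster 6, against 2626 CPM among those of cluster 11, a ratio of 2.15 (2.09 to 2.21). Psap alone was 42.3% of the pooled list in cluster 6 and 22.9% in cluster 11, against 6.98% in granulosa-like cluster 2. Without Psap, the list made up 0.769% of UMIs in PS-MP cells of cluster 6 and 0.791% in those of cluster 11, a ratio of 0.972 (0.956 to 0.989), against 1.27 (1.25 to 1.28) with Psap. Other members differed in both directions within the PS-MP library. Ctsl, a cysteine protease, was 816 CPM in the cells of cluster 6, against 266 CPM in those of cluster 11, a ratio of 3.07 (2.81 to 3.36). Gaa, the acid glucosidase of glycogen, had a ratio of 2.09 (1.67 to 2.63). Cd63, a tetraspanin of late endosomes, was 323 CPM in cells of cluster 6, against 709 CPM in cells of cluster 11, a ratio of 0.456 (0.430 to 0.484), and Gabarap had a ratio of 0.610 (0.577 to 0.645).

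Other clusters led in single members. Ctsl was highest in granulosa-like cluster 4, with 1417 CPM in PS-MP and 1582 CPM in control, and second in granulosa-like cluster 0; macrophages had 684 and 503 CPM. Theca-like cells, the androgen-making cells around the follicle, had the highest Sqstm1, the autophagy receptor p62, with 1241 CPM in PS-MP and 1165 CPM in control. They also had the highest Map1lc3a, 1 of the LC3 genes, with 429.8 and 411 CPM. Ctsk, a collagen-degrading protease, was highest in stromal fibroblast-like cells at 82.6 CPM in PS-MP and 89.2 CPM in control. Oocyte-like cells, with 93 PS-MP and 75 control cells, had the highest Mcoln1 and Atg5 of all clusters, at 69.5 and 68.0 CPM with the libraries pooled.

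Between the libraries, the summed list differed little within clusters. Its PS-MP over control ratio was 1.01 in macrophages (0.999 to 1.02), 1.06 in theca-like cells (1.05 to 1.07) and 1.08 in stromal fibroblast-like cells (1.07 to 1.09). In blood endothelial-like cells it was 0.963 (0.941 to 0.986). Among the 13 clusters with at least 50 cells in both libraries, the highest ratio was 1.11 in luteal-like cluster 11 (1.09 to 1.13), with 133 PS-MP and 227 control cells, and 1.07 without Psap (1.04 to 1.09). Over the 6 granulosa-like clusters the median ratio was 1.03, with a range of 1.00 to 1.06. The theca value was 1.02 when the cells were clustered at other resolutions or with the list genes.

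Single members were counted in the 10 clusters with at least 200 cells in both libraries, where a gene entered with at least 20 CPM in a library. Of 319 pairs of a member and a cluster, 21 (6.58%) were at least 1.2-fold higher in PS-MP, against 7.12% of all gene and cluster pairs. At least 1.2-fold lower were 6 (1.88%), against 9.14% of all pairs. At the stricter fold of 1.5, 2 pairs were higher and 1 was lower, against 1.28% and 1.15% of all pairs, and these 3 were in macrophages. The share of higher pairs was near that of all genes, and the share of lower pairs was below it. The median log2 ratio of the members ran from −0.04 in macrophages to 0.07 in theca-like cells, against −0.03 to 0.00 for all genes.

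**Figure D3:**
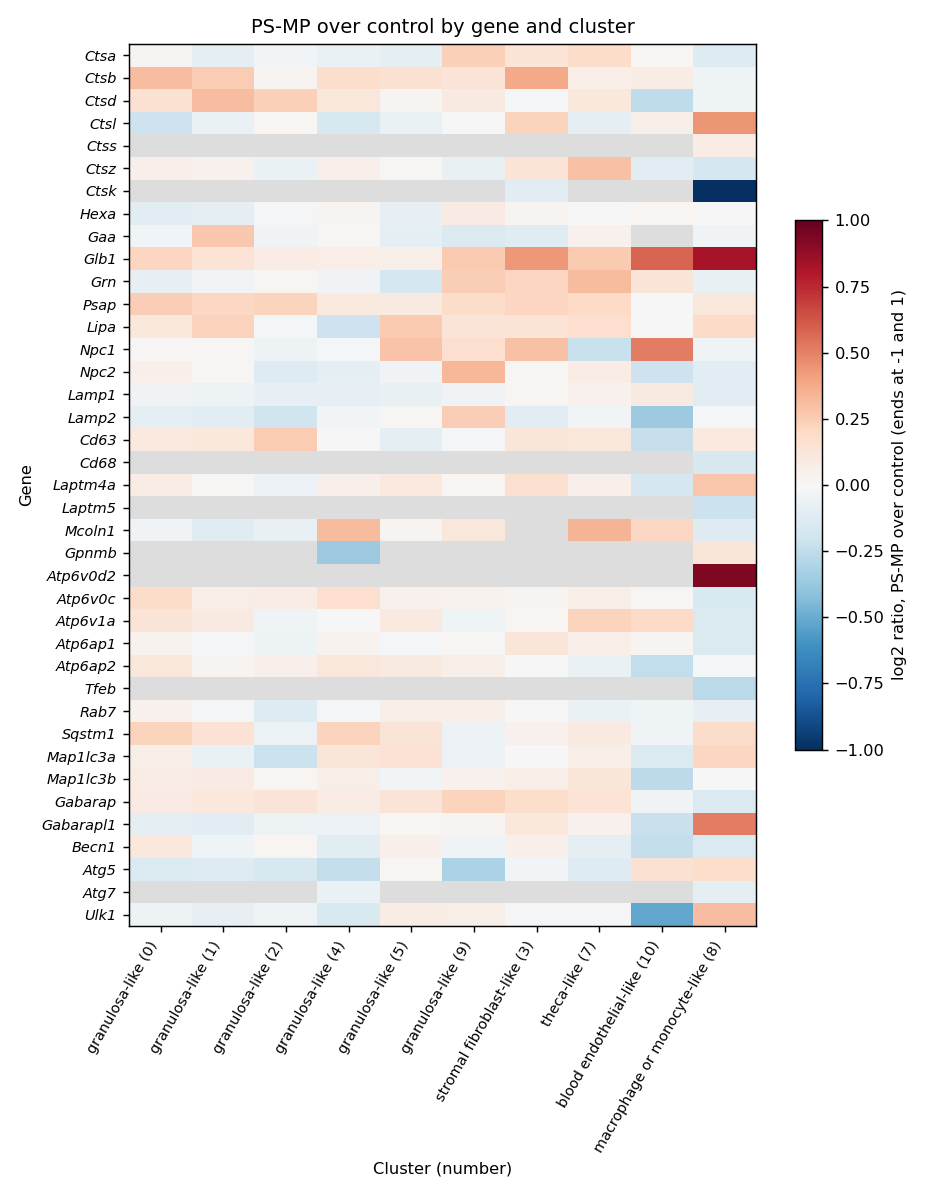
Log2 ratio of CPM, PS-MP over control, for each gene (rows) in the 10 clusters with at least 200 cells in both libraries (columns). Red is higher in PS-MP, blue is lower in PS-MP, grey marks pairs under 20 CPM in both libraries, and the colour scale ends at −1 and 1. The Psap and Glb1 rows are red or white throughout, and the strongest colours are in the macrophage column, where Glb1 and Atp6v0d2 are higher and Ctsk is lower.

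The counts of clusters given below for single members come from the same 2 libraries, so the clusters are not independent repeats of the exposure. No such counts were made over all genes. Among the hydrolase genes, Psap was higher in PS-MP in 10 of 10 clusters, with the interval above 1 in 9 of them. Its ratios ran from 1.00 in blood endothelial-like cells to 1.19 in granulosa-like cluster 0. In that granulosa-like cluster it stood at 489.5 CPM in PS-MP and 413 CPM in control, and in theca-like cells at 1206 and 1050 CPM. Luteal-like cluster 6 is rich in Psap and nearly absent from the control library, and the median of its 10 leading genes was also higher in PS-MP in each of these 10 clusters. The excess of Psap in PS-MP over control in granulosa-like cluster 0 was 76.6 CPM, or 1.36% of its level in cluster 6, and the median excess of the 10 leading genes of cluster 6 was 0.710% of theirs. In granulosa-like cluster 5 these were 0.545% and 0.425%, in theca-like cells 2.77% and 1.11%, in granulosa-like cluster 9 they were 2.31% and 0.362%, and in macrophages 9.71% and 3.43%. In blood endothelial-like cells they were 0.0482% and 1.48%. In luteal-like cluster 11, where Psap stood at 2626 CPM in PS-MP and 2072 CPM in control (1.27, 1.22 to 1.31), they were 9.8% and −0.345%. The part of cluster 6 RNA in the Psap ratios was not tested.

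Glb1, the acid beta-galactosidase, was also higher in 10 of 10 clusters, with the interval above 1 in 3 of them, and its levels were low. In stromal fibroblast-like cells it stood at 32.4 CPM in PS-MP and 24.0 CPM in control, a ratio of 1.35 (1.17 to 1.56). Lipa, the acid lipase that frees cholesterol from its esters, was higher in 8 of 10 clusters, with ratios from 0.865 in granulosa-like cluster 4 to 1.201 in granulosa-like cluster 5. Npc1 and Npc2, which carry cholesterol out of the lysosome, had median ratios of 1.01 and 0.992 over clusters. Npc1 was 63.9 CPM in PS-MP and 87.4 CPM in control in luteal-like cluster 11 (ratio 0.731, 0.589 to 0.903), and 45.2 and 31.7 CPM in blood endothelial-like cells (1.43, 1.05 to 1.94). Grn in theca-like cells was 143 CPM in PS-MP and 115 CPM in control, a ratio of 1.24 (1.14 to 1.36).

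Among the proteases, Ctsb was higher in PS-MP in 9 of 10 clusters. It stood at 510 CPM in PS-MP and 392 CPM in control in stromal fibroblast-like cells (1.302, 1.26 to 1.35), and at 232 and 188 CPM in granulosa-like cluster 0 (1.24, 1.19 to 1.29). In macrophages it stood at 7051 and 7256 CPM (0.972, 0.955 to 0.989). Ctsl had no common direction, as its interval lay above 1 in 2 clusters and below 1 in 4. It was 1061 CPM in PS-MP and 1226 CPM in control in granulosa-like cluster 0 (0.865, 0.850 to 0.881), and 266 and 420.5 CPM in luteal-like cluster 11 (0.632, 0.571 to 0.699). Ctsd ran from 0.837 in blood endothelial-like cells to 1.24 in granulosa-like cluster 1. In stromal fibroblast-like cells 3 of 31 members were at least 1.2-fold higher (Ctsb, Glb1 and Npc1), against 4.84% of all genes, and 0 were lower, against 5.9%. Npc1, at 1.225, came within 1.2-fold under 5 of 9 alternatives, with a lowest ratio of 1.066 with doublets kept.

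Membrane proteins and pump subunits had small ratios in most clusters. Lamp1 ratios ran from 0.923 in macrophages to 1.06 in blood endothelial-like cells. Lamp2, its close relative, had its interval below 1 in 5 clusters and above 1 in 1, and its lowest ratio was 0.777 in blood endothelial-like cells (185 CPM in PS-MP and 238 CPM in control). Atp6v0c, the proteolipid ring of the pump, ran from 0.902 in macrophages to 1.14 in granulosa-like cluster 0. Atp6v1a, a catalytic subunit of the pump, ran from 0.903 in macrophages to 1.17 in theca-like cells. In theca-like cells 3 of 31 members were at least 1.2-fold higher (Ctsz, Grn and Mcoln1), against 5.88% of all genes, and 0 were lower, against 9.85%. Of these, Ctsz came within 1.2-fold under 1 of 9 alternatives, at 1.164, and Mcoln1 under 2 of 9, at 1.178 at the lowest. In blood endothelial-like cells 2 of 30 were higher (Glb1 and Npc1), against 14.5%, and 2 were lower (Lamp2 and Ulk1), against 19.5%.

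Among the autophagy genes, Gabarap was higher in PS-MP in 8 of 10 clusters, each with its interval above 1. It stood at 574 CPM in PS-MP and 509 CPM in control in stromal fibroblast-like cells (1.13, 1.09 to 1.16), and at 943 and 1042 CPM in macrophages (0.905, 0.863 to 0.949). Sqstm1 was higher in 7 of 10 clusters, with its highest ratio of 1.17 in granulosa-like cluster 4, where it stood at 695 and 596 CPM. Becn1, a subunit of the lipid kinase complex that starts autophagy, had no interval clear of 1 in any of the 10 clusters. Atg5, part of the conjugation machinery for LC3, was lower in 7 of 10 clusters, with the interval below 1 in 4 of them, and its lowest ratio was 0.802 in granulosa-like cluster 9. None of the autophagy genes reached 1.5-fold in any of the 10 clusters.

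In the granulosa-like clusters few members passed 1.2-fold. In cluster 0, 1 of 31 was higher (Ctsb), against 3.79% of all genes, and 0 were lower, against 6.59%. In cluster 1, 2 were higher (Ctsd and Gaa), against 2.16%, and 0 were lower, against 4.9%. Gaa there stood at 65.8 CPM in PS-MP and 54.6 CPM in control (1.205, 1.13 to 1.29). In cluster 2, 0 were higher and 0 lower, against 5.15% and 8.98%. In cluster 4, 1 of 33 was higher (Mcoln1), against 5.12%, and 1 was lower (Gpnmb), against 7.65%. In cluster 5, 2 of 31 were higher (Lipa and Npc1), against 5.68%, and 0 were lower, against 5.7%. In cluster 9, 1 of 31 was higher (Npc2), against 10.3%, and 1 was lower (Atg5), against 11.1%. Npc2 there stood at 143 CPM in PS-MP and 114 CPM in control (1.26, 1.11 to 1.43), and Atg5 at 32.8 and 40.9 CPM (0.802, 0.622 to 1.03). Gaa in cluster 1, Lipa in cluster 5 and Npc2 in cluster 9 came within 1.2-fold under some of the 4 alternatives tried there, at 1.189, 1.161 and 1.198 at the lowest.

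In macrophages, 6 of 39 members were at least 1.2-fold higher in PS-MP (Ctsl, Glb1, Laptm4a, Atp6v0d2, Gabarapl1 and Ulk1), or 15.4%, against 14% of 7047 genes tested. At least 1.2-fold lower were 2 (Ctsk and Tfeb), against 11.4%. At 1.5-fold, 2 were higher (Glb1 and Atp6v0d2), against 4.24%, and 1 was lower (Ctsk), against 1.79%. Atp6v0d2 stood at 336 CPM in PS-MP and 176 CPM in control (1.91, 1.75 to 2.10), and Glb1 at 42.8 and 24.2 CPM (1.77, 1.37 to 2.29). Ctsl stood at 684 and 503 CPM (1.36, 1.28 to 1.44), and Gabarapl1, a relative of Gabarap, at 81.3 and 57.0 CPM (1.43, 1.19 to 1.70). The members nearly confined to immune cells differed in both directions. Cd68 stood at 1235 CPM in PS-MP and 1377 CPM in control (0.897, 0.860 to 0.935) and Laptm5 at 823 and 957 CPM (0.860, 0.817 to 0.904), while Ctss had a ratio of 1.05 (1.02 to 1.08) and Gpnmb of 1.09 (1.03 to 1.15). Of the 8 calls at 1.2-fold, 3 came within it under other choices of filter, doublets, clustering, scaling or weighting. Laptm4a was 1.14 and Ulk1 1.123 with no filter on genes or mitochondrial counts, and Tfeb was 0.869 at resolution 0.3. Tfeb was 0.926 without sub-clusters 5 to 8 of these cells, a choice made after seeing the data. With 6 sub-clusters weighted alike, also chosen after seeing the data, Laptm4a and Ulk1 were 1.151 and 1.162, and Lipa was 1.245. A further such step left out the 5 cells of each library with most counts of the gene. By it Ctsl was 1.163, Ctsk 1.092, Gpnmb 0.990, Psap 0.995 and Ctss 1.013. Atp6v0d2, Glb1 and Gabarapl1 were 1.637, 1.739 and 1.394, and Laptm4a, Ulk1 and Tfeb were not taken through it. Outside sub-cluster 2 of these cells, described below, Ctsl was 1.11 (1.02 to 1.21). The count of higher members at 1.2-fold lay near the background, and the median log2 ratio was −0.04 against −0.01 for all genes. Median depth was 5615 UMIs in PS-MP macrophages and 6781.5 in control macrophages.

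The low Ctsk ratio came from 1 cell. Ctsk stood at 16.4 CPM in PS-MP macrophages and 52.3 CPM in control macrophages, a ratio of 0.314 (0.221 to 0.436). A single control cell with 12648 UMIs held 222 of the Ctsk counts, or 69.4% of those in control macrophages. It also held 46 counts of Atp6v0d2 and, named after its values were seen, 54 of Acp5 and 53 of Mmp9, an acid phosphatase and a matrix protease known from osteoclasts, but 0 of Calcr and Oscar. Without that cell the control level was 16.0 CPM and the ratio 1.02 (0.693 to 1.49).

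**Figure D4:**
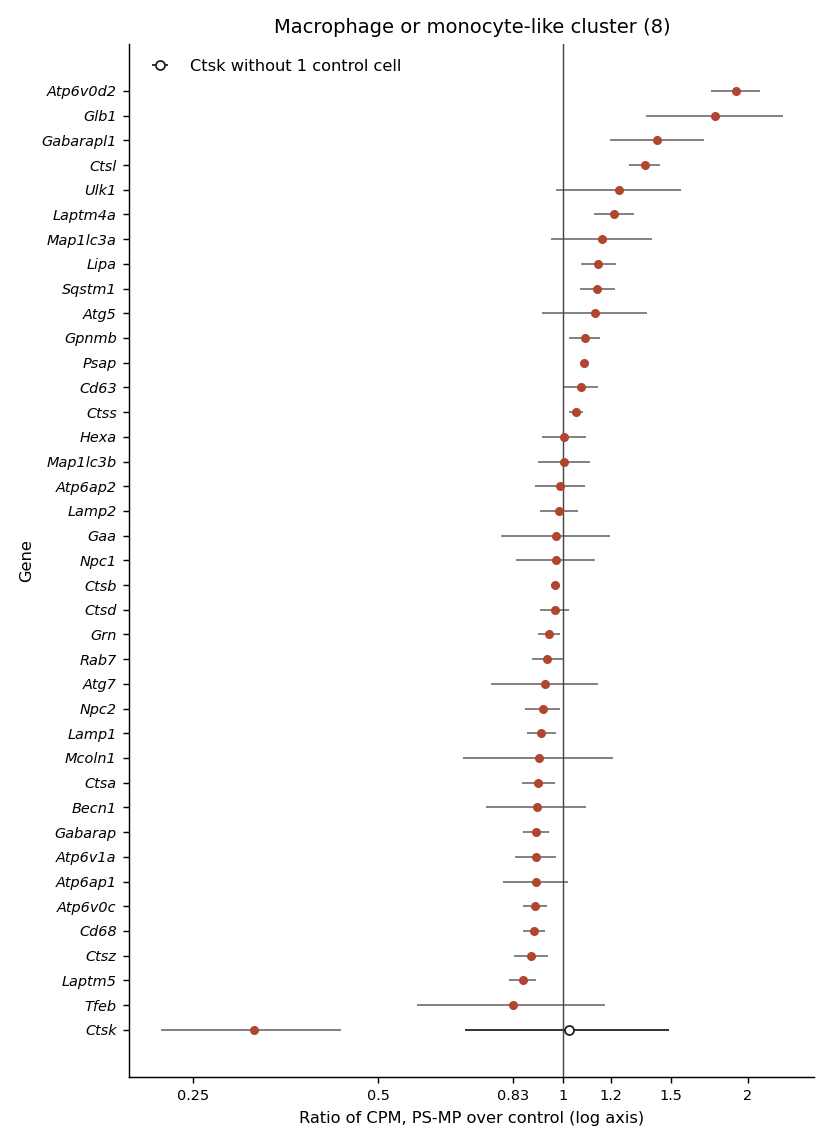
Ratio of CPM, PS-MP over control, for the 39 genes in macrophage or monocyte-like cells (log axis), with exact 95% intervals for counting error. Atp6v0d2 and Glb1 lie highest at 1.91 and 1.77, 31 of 39 genes lie within 1.2-fold in either direction, and the open circle shows that Ctsk moves to 1.02 without 1 control cell.

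Macrophages were clustered again without the 39 genes, and the list differed strongly among the sub-clusters. Sub-cluster 2, led by Fabp4, Mgll, Mmp12 and Lpl, genes of lipid handling and of a macrophage elastase, held 52 PS-MP cells and 122 control cells. These were 15.0% (11.4 to 19.2) and 16.7% (14.1 to 19.6) of the macrophages of each library. The list made up 5.74% of its pooled UMIs, against 2.96% in sub-cluster 0 (led by Cp and Bmp2, with the highest C1qa), 3.20% in sub-cluster 1 (Jaml, Ms4a4a), 2.89% in sub-cluster 3 (Fn1, Arg1, Chil3) and 1.82% in sub-cluster 4 (Cd209a, Ccl17). Gpnmb and Atp6v0d2 were nearly confined to sub-cluster 2. With the libraries pooled, Gpnmb stood at 2272 CPM there and at most at 196 CPM in sub-clusters 0 to 5 otherwise, and Atp6v0d2 at 765 CPM and at most at 84.5 CPM.

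In that Fabp4-led sub-cluster the list was 1.21-fold higher in PS-MP (1.197 to 1.23), and in sub-clusters 0, 1, 3 and 4 the ratios were 1.02, 0.982, 0.955 and 1.01. Atp6v0d2 stood at 1397 CPM in PS-MP and 551 CPM in control (2.54, 2.30 to 2.79), and 76.9% of its PS-MP cells and 45.9% of its control cells had a UMI of it. Among the other macrophages, 4.75% of PS-MP cells and 6.25% of control cells had one. Psap stood at 16605 and 11785 CPM (1.41, 1.37 to 1.44), Ctss at 5377 and 3622 CPM (1.48, 1.42 to 1.55), and Gpnmb at 2881 and 2065 CPM (1.39, 1.31 to 1.48). Ctsl stood at 1591 and 838 CPM (1.90, 1.74 to 2.07), and Glb1 at 62.6 and 27.4 CPM (2.28, 1.43 to 3.63). Cd68, Lamp1, Lamp2 and Gabarap stayed near 1, with 0.977, 1.03, 1.00 and 0.974. In all, 30 of 39 members were higher in PS-MP, but the share of all genes that were higher was not counted. Of the 39 members, 15 were at least 1.2-fold higher, against 21.4% of 6723 genes. The list was not summed without Psap in this sub-cluster. Past 1.5-fold were 6 members (Ctsl, Glb1, Atp6v0d2, Map1lc3a, Gabarapl1 and Ulk1), against 8.45%. At least 1.2-fold lower was 1 member, Atg7, against 32.9%, 0 were lower past 1.5-fold, against 12.9%, and the median log2 ratio was 0.12 for the members and −0.08 for all genes.

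Within sub-cluster 2 the cells of both libraries overlapped. The list took a median of 5.83% of a cell's UMIs in PS-MP (quartiles 4.56 and 8.42, range 1.37 to 12.8) and 5.14% in control (3.71 and 6.62, range 1.29 to 12.3). Median depth was 9581.5 UMIs in PS-MP cells and 12589 in control cells. The 5 PS-MP cells with most Atp6v0d2 held 41.4% of its PS-MP counts and the 5 such control cells 30.4%, and without these cells the ratio was 2.52. By the same step, chosen after the values were seen, the ratio was 1.46 for Ctsl, 1.275 for Psap and 0.987 for Ctsb, against 1.09 for Ctsb with all cells. Lyz2, a macrophage marker and no member, was likewise higher there, at 20712 and 16209 CPM (1.28, 1.25 to 1.31), while Csf1r stood at 569 and 560.3 CPM. Outside sub-cluster 2, the remaining 295 PS-MP and 608 control macrophages had Psap at 4338 and 4612 CPM (0.941, 0.917 to 0.965), Ctss at 0.902 (0.872 to 0.933) and Atp6v0d2 at 0.792 (0.579 to 1.07). Gpnmb stood at 26.3 and 79.5 CPM there (0.331, 0.242 to 0.445). The Atp6v0d2 value outside sub-cluster 2 rests on few cells. The 5 cells with most Atp6v0d2 held 79.7% of its PS-MP counts and 52.3% of its control counts. Of the 172 control counts, 46 lay in the single control cell rich in Ctsk. Without the 5 cells of each library, a step chosen after the values were seen, the Atp6v0d2 ratio was 0.345.

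**Figure D5:**
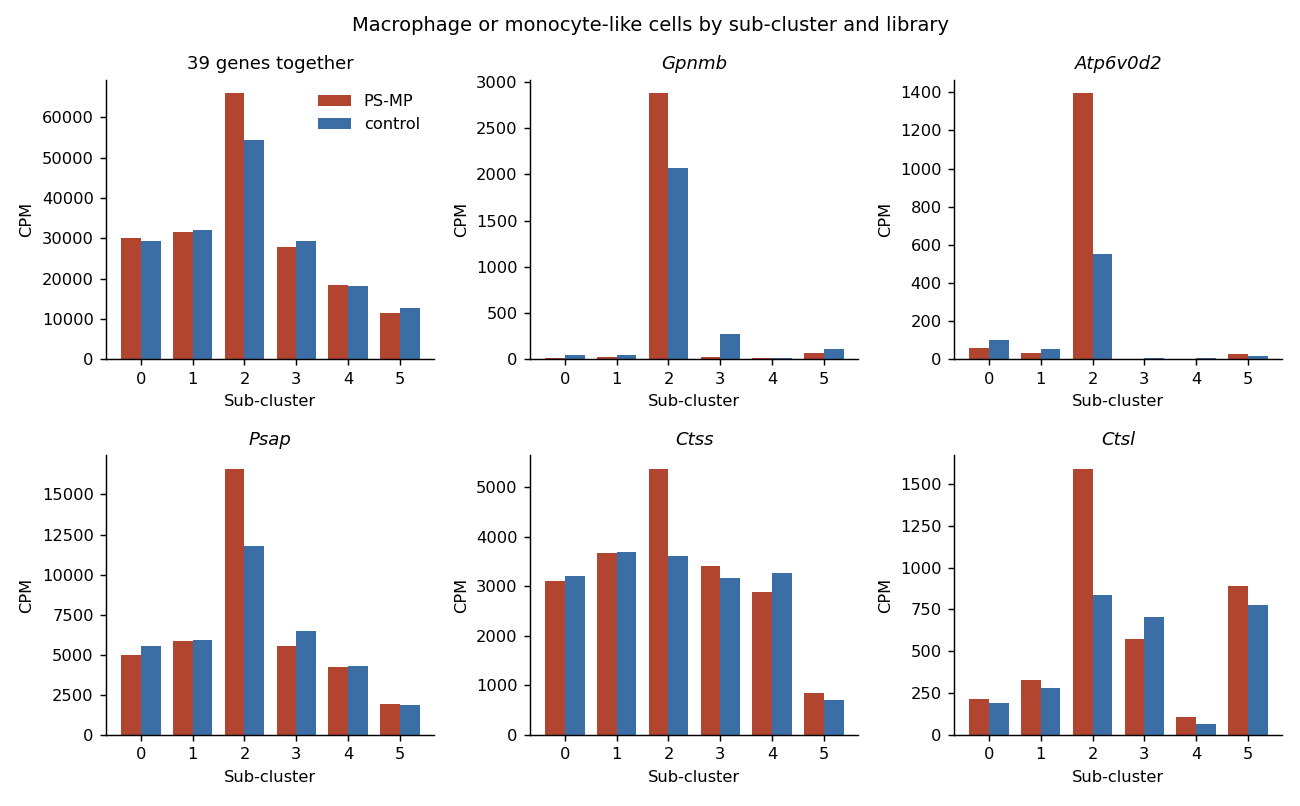
CPM of the 39 genes together and of 5 members in sub-clusters 0 to 5 of the macrophage or monocyte-like cells, with PS-MP on the left and control on the right of each pair. The highest bar of each panel is that of PS-MP in sub-cluster 2, where Atp6v0d2 stands at 1397 CPM in PS-MP and 551 CPM in control. The 5 members drawn are all among those at least 1.2-fold higher in PS-MP in sub-cluster 2. The direction of their bars there thus follows from which members are drawn. Members that stayed nearly level there, such as Cd68 and Gabarap, are not drawn.

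Some cells of the macrophage cluster carried genes of other cell types. Sub-cluster 5, with 38 PS-MP cells and 84 control cells, was led by Nap1l5, Inhbb and Inhba, and sub-cluster 6, with 27 and 9 cells, by Col3a1, Col1a2 and Col1a1. Sub-cluster 7, with 2 and 21 cells, was led by genes of cell division, and sub-cluster 8, with 6 and 6 cells, by the antibody genes Igha, Jchain and Igkc. S100a8, a neutrophil marker, stood at 174 CPM in PS-MP and 403 CPM in control in sub-cluster 5, and at resolution 1.0 a neutrophil-like cluster of 13 PS-MP and 49 control cells formed. Summed over cluster 8, the 12 granulosa markers stood at 2526 CPM in PS-MP and 2527 CPM in control, the 10 luteal markers at 1390 and 708 CPM, the 7 theca markers at 530 and 190 CPM, the 8 stromal fibroblast markers at 502 and 154 CPM, and the 6 neutrophil markers at 214 and 262 CPM. The part of this RNA in the macrophage ratios was not tested. With sub-clusters 5 to 8 left out, the list ratio in macrophages was 1.07, against 1.01 with them.

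The pathway was also read through 108 further genes of lysosomes, autophagy and particle uptake, all measured in both libraries. In macrophages 89 of them were tested, of which 9 were at least 1.2-fold higher and 10 lower, against 14% and 11.4% of all genes, with a median log2 ratio of −0.05. Both counts lay near or below those shares. Of 15 tested genes of the uptake of particles and debris, 1 was higher and 3 were lower, beside the same shares of all genes. The higher one was Scarb1, the receptor for high-density lipoprotein, which stood at 152 CPM in PS-MP and 105 CPM in control (1.44, 1.27 to 1.64). Scarb1 also reached 50 CPM in theca-like cells, in stromal fibroblast-like cells and in each granulosa-like cluster. As given above, theca and stromal fibroblast markers summed higher in PS-MP macrophages than in control macrophages, and granulosa markers were nearly level. The part of RNA of other cell types in the Scarb1 ratio was not tested. Of the 3 lower ones, 1 was past 1.5-fold and under 50 CPM in both libraries, and Fcgr2b was lower by more than Cd36. Cd36, a scavenger receptor for modified lipoproteins, stood at 609 and 766 CPM (0.795, 0.750 to 0.843). Msr1, another scavenger receptor, stood at 565 and 677 CPM (0.834, 0.785 to 0.887), just within 1.2-fold. Among 19 further autophagy genes tested, 6 were higher and 1 was lower, against 14% and 11.4% of all genes. Among the higher ones was Bnip3, a mitophagy receptor, at 70.5 and 51.5 CPM (1.37, 1.13 to 1.65). Of 12 further pump subunits 0 passed the 1.2-fold mark in macrophages, with a median log2 ratio of −0.06. In blood endothelial-like cells 6 of 77 further genes were higher and 15 lower, against 14.5% and 19.5% of all genes. In granulosa-like cluster 9 these counts were 13 and 2 of 78, against 10.3% and 11.1%.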

How the data were processed

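The values the authors deposited are raw UMI counts, whole numbers for each cell that were not normalized. The submitters' processing notes list GRCm39 and Seurat with no role for either; no label or header names the aligner, the counter or the cell calling. Cells with at least 500 genes and at most 25% mitochondrial counts were kept, and doublets called with scrublet (expected rate 0.05; 393 PS-MP and 373 control cells, 2.66% and 2.51%) were left out. Clustering used scanpy 1.11.5 and leidenalg 0.10.2 with 2000 variable genes, none from the lists, 30 components, 15 neighbours, resolution 0.5 and no batch correction. A cluster was named by the marker list of highest mean relative level, with at least 3 markers at 20 CPM and a score of at least 0.15, a rule chosen once the files had been seen; differences from the study's own cell types may come from it. Counts were summed per cluster and library. Ratios carry exact conditional binomial intervals, shares exact Clopper-Pearson intervals and levels exact Poisson intervals, and fold marks use CPM ratios. Log2 ratios add 1 CPM to both values. The ratio steps were tested on simulated data. All 39 members could be named, and of the further genes the 4 of largest ratio at 50 CPM or more per sublist and cluster. Members, lists and markers were chosen with earlier results of these data known. The labels give n = 16 mice, either per group or in all. Alternatives covered filters, doublets, clustering, scaling and weighting.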

Additional observations from a re-analysis of the deposited data

Results flagged for a closer look

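The direction of 4 members differed between clusters past 1.2-fold, with intervals clear of 1 on both sides. The share of all genes that meet this rule was not counted, so the count shows nothing particular to the members. With 1 library per group these differences between clusters were not tested. Ctsl had a PS-MP over control ratio of 1.36 in macrophage or monocyte-like cells and of 0.632 in luteal-like cluster 11. That luteal-like cluster held 133 PS-MP and 227 control cells. The macrophage value of Ctsl was 1.163 without the 5 cells of each library with most of its counts. Gaa had 1.205 in granulosa-like cluster 1 and 0.759 in luteal-like cluster 11. The Gaa value in granulosa-like cluster 1 came within 1.2-fold under 2 of 4 alternatives, at 1.189 at the lowest. Npc1 had 1.45 in oocyte-like cells, with 93 PS-MP and 75 control cells, and 0.7315 in luteal-like cluster 11. Lamp2 had 1.22 in luteal-like cluster 11 and 0.745 in smooth muscle or pericyte-like cells, with 92 PS-MP and 144 control cells.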

How the results depend on the processing

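No paired analysis was possible because each group holds 1 library, and leaving out a replicate was not possible for the same reason. Weighting clusters of a class alike and leaving out clusters of 1 library gave no further value, since each comparison was made within a cluster and cluster 6 was in none. The summed ratio moved by more than its counting interval as follows. In theca-like cells it was 1.05 with at most 15% mitochondrial counts, 1.026 with no filter on genes or mitochondrial counts, 1.021 with doublets kept, 1.024 when the list genes could enter the clustering, 1.021 at resolution 1.0, 1.023 at resolution 0.3 and 1.09 with median-of-ratios size factors. In stromal fibroblast-like cells it was 1.094 with those size factors and 1.066 with every cell weighted alike, and in luteal-like cluster 11 it was 1.09 with that weighting. In macrophages it was 1.019 with no filter, 1.018 with doublets kept, 0.9946 at resolution 1.0 and 1.02 with every cell weighted alike. By macrophage sub-cluster it was 1.021 in 0, 0.9823 in 1, 1.212 in 2, 0.9547 in 3 and 0.9143 in 5, and it was 1.067 without sub-clusters 5 to 8, an alternative chosen after seeing the data. In blood endothelial-like cells it was 0.9897 with no filter and 0.996 with doublets kept, and in smooth muscle or pericyte-like cells it was 0.9706 at resolution 0.3. With no filter on low values the pairs past 1.2-fold were 36 higher and 33 lower, against 24.6% and 29.8% of all pairs, and those past 1.5-fold 9 higher and 17 lower, against 16.1% and 20.5%, out of 389. From 50 CPM the 1.2-fold pairs were 12 higher and 3 lower, against 5.37% and 6.98%, and the 1.5-fold pairs 1 higher, against 0.817%, out of 278. The 1.2-fold lower pairs were 10 of 320 with at most 15% mitochondrial counts, against 9.76%, and 10 of 444 at resolution 1.0, against 10.2%. The share of lower pairs was below that of all pairs in each of these settings. Of the 27 calls at 1.2-fold, 9 came within it under at least 1 other choice of filter, doublets, clustering, scaling or weighting, and 18 did not. Sub-clusters and steps chosen after seeing the data are not in this count. Among the 18 were Ctsk and Ctsl in macrophages. Ctsk was 1.023 without 1 control cell. Ctsl was 1.163 without the 5 cells of each library with most of its counts. Single macrophage members turned direction in some sub-clusters: Ctsl to 0.8177, Laptm4a to 0.8515 and Ulk1 to 0.6915 in 3; Glb1 to 0.6081, Laptm4a to 0.9932, Gabarapl1 to 0.8783 and Ulk1 to 0.4941 in 4; Atp6v0d2 to 0.6019 in 0 and 0.6281 in 1; Gabarapl1 to 0.7437 in 1; Tfeb to 1.083, 1.648 and 1.036 in 0, 1 and 2; and Ctsk to 1.806, 1.229 and 2.312 in 0, 2 and 5. Members under 1.2-fold in macrophages also turned, with Psap at 0.894 in 0 and 0.855 in 3, and Gpnmb at 0.168 in 0, 0.442 in 1 and 0.0820 in 3. Ctsk was also turned, to 1.023, by leaving out the control cell named above, and Ctsb in sub-cluster 2, to 0.9872, by leaving out the 5 cells of each library with most of its counts; both were chosen after seeing the data. The control cell rich in Ctsk also held 46 of the 62 control counts of Atp6v0d2 in sub-cluster 1. The Atp6v0d2 ratio there was not computed without that cell. The cause of the other shifts was not tested. Counts of under 50 in a sub-cluster, as for Glb1, Ulk1 and Ctsk, limit what these values can show. The Ctsk value of 1.806 in sub-cluster 0 comes from 1 count in each library (0.0230 to 142).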
